A study of Mus musculus with 2 samples.

Results

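Foxp2 chromatin binding was examined at 6 genes of kidney tubule transport, zinc sensing and tight junctions: Slc12a1, Slc4a1, Slc22a23, Slc25a45, Cldn3 and Gpr39. The genes were chosen by the peaks called beside them in the same library, so the presence and size of their peaks are a description and carry no test. Every peak whose summit lay in a gene or within 50 kb of it was taken, which gave 9 peaks of the 944 in the list and 6 of 21631 protein-coding genes. Foxp2 is a forkhead transcription factor. It was immunoprecipitated from C1.1, a mouse tubular epithelial cell line that carried a CRISPR activation plasmid for the endogenous Foxp2 gene and had been stably selected. There was 1 ChIP library and 1 input library, and both came from the activated cells. Cells without activation were not compared, no expression was measured, and the tubular identity of the line could not be checked against marker levels.

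The tubule reclaims most of the filtered salt, water and solutes through transporters that differ from segment to segment. Slc12a1 encodes NKCC2, which takes up sodium, potassium and chloride in the thick ascending limb and is the target of loop diuretics. Slc4a1 encodes the anion exchanger AE1, which moves bicarbonate across the basolateral membrane of acid-secreting intercalated cells and is also a major protein of red cells. Slc22a23 belongs to the organic ion transporter family and its substrate is not established, and Slc25a45 belongs to the carrier family of the inner mitochondrial membrane. Cldn3 encodes a claudin, a strand protein of the tight junction that seals the space between epithelial cells. Gpr39 encodes a G protein-coupled receptor that senses extracellular zinc. Forkhead factors recognise a short DNA core with the letters TGTTT, and TGTTTAC is a typical full site.

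Sequences of the start regions are shown first, to set the letters beside the peaks. Promoter windows, 250 bases before to 50 after a start, were taken from RefSeq (GRCm38.p6), and 5 of the 6 genes had one (Slc4a1 had no entry). The Slc25a45 window is shown because that gene had the peak closest to a start, and the Slc12a1 window because it alone of the 5 held a full forkhead site. That of Rxrb, picked after its values were seen, is a window that a peak did cover, beside a zinc transporter gene. Capitals mark TGTTT on either strand, together with any of the full sites TGTTTAC or TGTTTGC or TATTTAC or TGTTTAT or TATTTAT, and letters run from 5′ to 3′ on the strand of the gene.
Slc25a45 (plus strand, chr19:5877572-5877871): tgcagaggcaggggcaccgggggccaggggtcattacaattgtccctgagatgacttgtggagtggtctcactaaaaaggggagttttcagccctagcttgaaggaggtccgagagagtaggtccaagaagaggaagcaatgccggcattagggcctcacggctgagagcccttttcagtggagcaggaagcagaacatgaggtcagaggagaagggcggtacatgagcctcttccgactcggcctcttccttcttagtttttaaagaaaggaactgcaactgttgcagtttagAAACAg
Slc12a1 (plus strand, chr2:125152350-125152649): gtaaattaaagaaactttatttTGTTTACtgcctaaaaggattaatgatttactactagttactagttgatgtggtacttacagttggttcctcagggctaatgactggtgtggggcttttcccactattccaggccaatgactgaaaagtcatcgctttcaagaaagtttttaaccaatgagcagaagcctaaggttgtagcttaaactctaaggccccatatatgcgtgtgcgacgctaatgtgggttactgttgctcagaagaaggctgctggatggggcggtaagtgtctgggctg
Rxrb (plus strand, chr17:34032100-34032399): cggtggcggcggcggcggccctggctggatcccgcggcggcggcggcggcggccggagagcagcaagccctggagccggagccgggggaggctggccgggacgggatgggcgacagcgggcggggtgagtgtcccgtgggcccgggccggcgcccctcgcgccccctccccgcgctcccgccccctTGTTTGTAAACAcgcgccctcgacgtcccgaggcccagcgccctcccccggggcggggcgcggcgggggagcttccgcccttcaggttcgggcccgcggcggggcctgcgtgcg

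None of the 5 member windows was under a peak. In Slc12a1 the site TGTTTAC began 228 bp before the start, while the summit of that gene lay 56.7 kb downstream of the start. In Slc25a45 the window held 1 copy of the short core, on the opposite strand and beginning 45 bp after the start, and no full site. The windows of Cldn3, Gpr39 and Slc22a23 held neither the core nor a full site. Slc22a23 had the most G and C, at 77.3% of 300 bases, against a median of 53.0% over 32619 windows. A full site of any of the 5 spellings was present in 19.2% of all windows and the core TGTTT in 50.6%.

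The letters of the 9 member peaks themselves were not analysed here, because none of them overlapped a window. Over the whole list, 81 windows lay under 67 peaks, and 21 of them (25.9%) held TGTTTAC, against 3.67% of all windows. The other 4 spellings were in 4.94% (TGTTTGC), 0 (TATTTAC), 3.70% (TGTTTAT) and 6.17% (TATTTAT) of the windows under a peak, against 5.08%, 3.06%, 4.61% and 5.60% of all windows. Any of the 5 was in 38.3% against 19.2%, and the core TGTTT in 72.8% against 50.6%. The 23 copies in those 21 windows lay a median of 17 bp from the summit, and 18 were within 50 bp. These windows were taken for overlapping a peak, which limits how far a copy can lie, and other letters were not compared. Copies were counted per window and peak, so a site in overlapping windows counts more than once. In Rxrb, whose peak (5.24-fold) lay 588 bp outside the zinc transporter gene Slc39a7, the centre of TGTTTAC was 16 bp from the summit. Rxrb was 1 of 5 windows under a peak of the gene lists counted here. Hdac7 held TGTTTAC 286 bp from its summit, and the other 3 held no full site. Of the other letters searched on both strands, the HNF1 half-site GTTAAT was in 7.10% of all windows and, among the members, in Gpr39 alone, 69 bp before the start. The AP-1 site TGANTCA, in 7.85% of all windows, was also found in Gpr39 alone, 133 bp before the start. The GC box GGGCGG, in 35.9% of all windows, was in the other 4 member windows, with 4 copies in Slc22a23. CCAAT, in 37.6% of all windows, was in Slc12a1 alone, with 2 copies, and the E-box CACGTG, in 7.20%, was in none. Under peaks, the GC box was in 50.6% of windows, CCAAT in 42.0%, the AP-1 site in 12.3%, the E-box in 8.64% and the HNF1 half-site in 1.23%. These shares are descriptions and were not tested.

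The fold over input is the authors' value at the summit, and the interval beside it is the 95% exact Poisson interval of the ChIP pileup. It covers counting error only, since there was no replicate. Folds at the members ran from 3.55 to 21.1 with a median of 6.24, and 6 of the 9 lay at or above the median of the whole list, 5.13. The middle of the list, from the lower to the upper quartile, spanned 4.22 to 7.08. Ordered by fold, Gpr39 was followed by Slc25a45, Slc12a1, the peak 20.1 kb outside Slc22a23, the other Slc22a23 peaks and, between them, Cldn3 and Slc4a1. Of the 8 pairs of neighbours in that order, only Gpr39 and Slc25a45 had intervals that did not overlap.

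**Figure D1:**
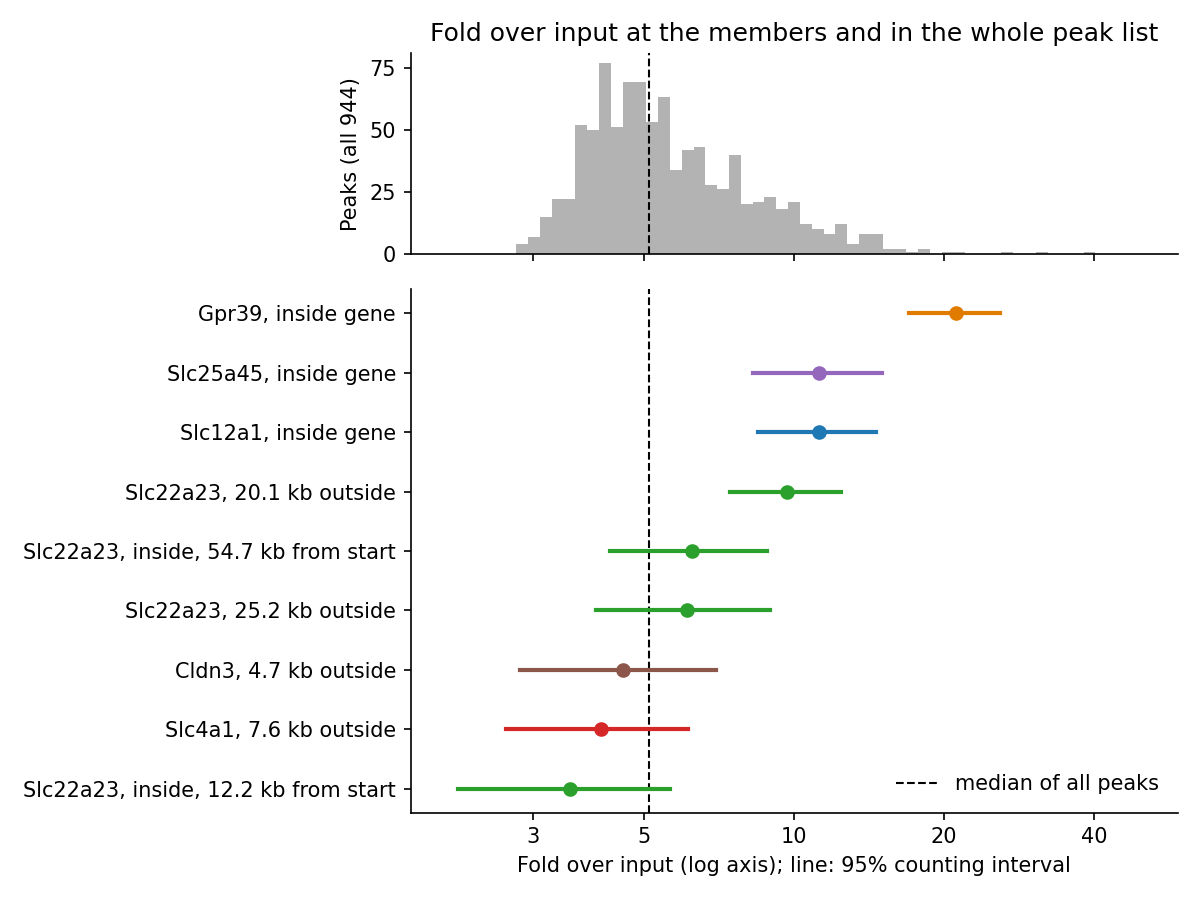
The upper panel counts all 944 peaks by fold over input (log axis), and the lower panel shows the 9 member peaks, with points at the authors' fold and lines for the 95% counting interval of the pileup. Gpr39 at 21.1 stands clear of the others, while Cldn3, Slc4a1 and 1 peak of Slc22a23 lie below the dashed list median of 5.13.

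The zinc receptor gene Gpr39 (chromosome 1, 125676996 to 125873862, 197 kb) had the strongest peak of the members. The peak (chr1:125701631-125701970) had a pileup of 89 reads over a background of 3.27, which gave a fold of 21.1 (17.0 to 25.9) and a −log10 q of 87.3. It ranked 4 of 944 by fold and 5 by −log10 q. Both ranks hold within the peaks analysed, from which the 8 lowest peak numbers are absent. The summit lay inside the gene, 24.8 kb downstream of the start, at 12.6% of the gene's length. The peak was isolated from other coding genes: none lay within 50 kb of the summit, although the pseudogene Gm18444 lay 32.7 kb away. The next listed start of another gene was 140.0 kb away (Gm41943, noncoding), and the next summit was 2530 kb beyond the gene, inside Dars.

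The loop-diuretic target Slc12a1 (chromosome 2, 125152510 to 125230002, 77.5 kb) also had a single, strong peak. The peak (chr2:125209164-125209509) had 54 reads over a background of 3.90, a fold of 11.2 (8.48 to 14.6) and a −log10 q of 36.7. Its summit lay at 73.2% of the gene's length and 20.7 kb from the far boundary. The noncoding gene Gm14002 overlaps this stretch, and its boundary was nearer, at 3219 bp, so the summit was inside both genes. The nearest other coding gene was Dut, which encodes an enzyme that removes dUTP, at 38.0 kb, and the next summit was 801 kb beyond Slc12a1. The listed start nearest to the summit was that of Gm46760, at 7.81 kb, against 56.7 kb for that of Slc12a1.

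The mitochondrial carrier gene Slc25a45 (chromosome 19, 5877801 to 5885768, 7.97 kb) had the only member peak close to a start. The peak (chr19:5877896-5878143) had 45 reads over the lowest background in the list, 3.09, with a fold of 11.2 (8.26 to 15.0) and a −log10 q of 31.1. The summit lay 232 bp downstream of the start, and the peak began 25 bp past the last base of the promoter window printed above. Of 17274 coding genes with a listed start, 0.504% had a summit within 1 kb of it. Slc25a45 was chosen by its peak, so nothing is read from this share. The surroundings are crowded with genes: Frmd8 lay 2.79 kb from the summit, and Tigd3, Dpf2 and Cdc42ep2 lay 13.1, 18.5 and 39.5 kb away. The start of Frmd8 was 2.85 kb from the summit.

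Slc22a23 (chromosome 13, 34179158 to 34345275, 166 kb, minus strand) was the one member with several peaks. The 4 summits straddled the start: 2 lay upstream of the gene and 2 inside it. The strongest (chr13:34365271-34365488) lay 20.2 kb upstream of the start, with 60 reads over a background of 5.30, the highest background of the 9, a fold of 9.68 (7.43 to 12.4) and a −log10 q of 36.3. The second upstream peak (chr13:34370367-34370776) was 25.3 kb from the start and 5.08 kb from the first summit, with 24 reads and a fold of 6.11 (4.0 to 8.97). Inside the gene, the peak 54.7 kb downstream of the start (chr13:34290426-34290635) had 30 reads and a fold of 6.24 (4.27 to 8.82). The peak 12.2 kb downstream (chr13:34333035-34333217) had 16 reads, a fold of 3.55 (2.12 to 5.64) and a −log10 q of 2.33, the weakest values of the 9.

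These Slc22a23 peaks formed a cluster. A run was taken as 3 or more summits within 50 kb, and 3 of the 4 summits made such a run, spanning 37.4 kb. The list held 15 runs with 47 peaks (4.98%), and this was the only one at a member. It included the weakest peak, 12.2 kb downstream of the start, whose −log10 q was 2.33. That summit lay 42.5 and 32.3 kb from those on either side, so without it no such run was left at Slc22a23. No other coding gene lay within 50 kb of any of the 4 summits, and the nearest, Psmg4, was 112 kb or more away. The pseudogene Gm6129 lay 23.2 kb from the outermost summit and was nearer to it than Slc22a23, at 25.2 kb. Of all coding genes, 10 (0.0462%) had 4 or more summits in the gene or within 50 kb. The other 9 were Rad51b, Ankrd66, Glis3, Arid5b, Asrgl1, Crybg1, Cyb5b, Pla2g7 and Scgb1a1, named after their values were seen, and Rad51b had the most, at 6. Slc22a23, at 166 kb, is far longer than the median coding gene, at 17.3 kb, so more positions count for it. Neighbouring genes can share peaks, so the 10 genes need not be separate loci.

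**Figure D2:**
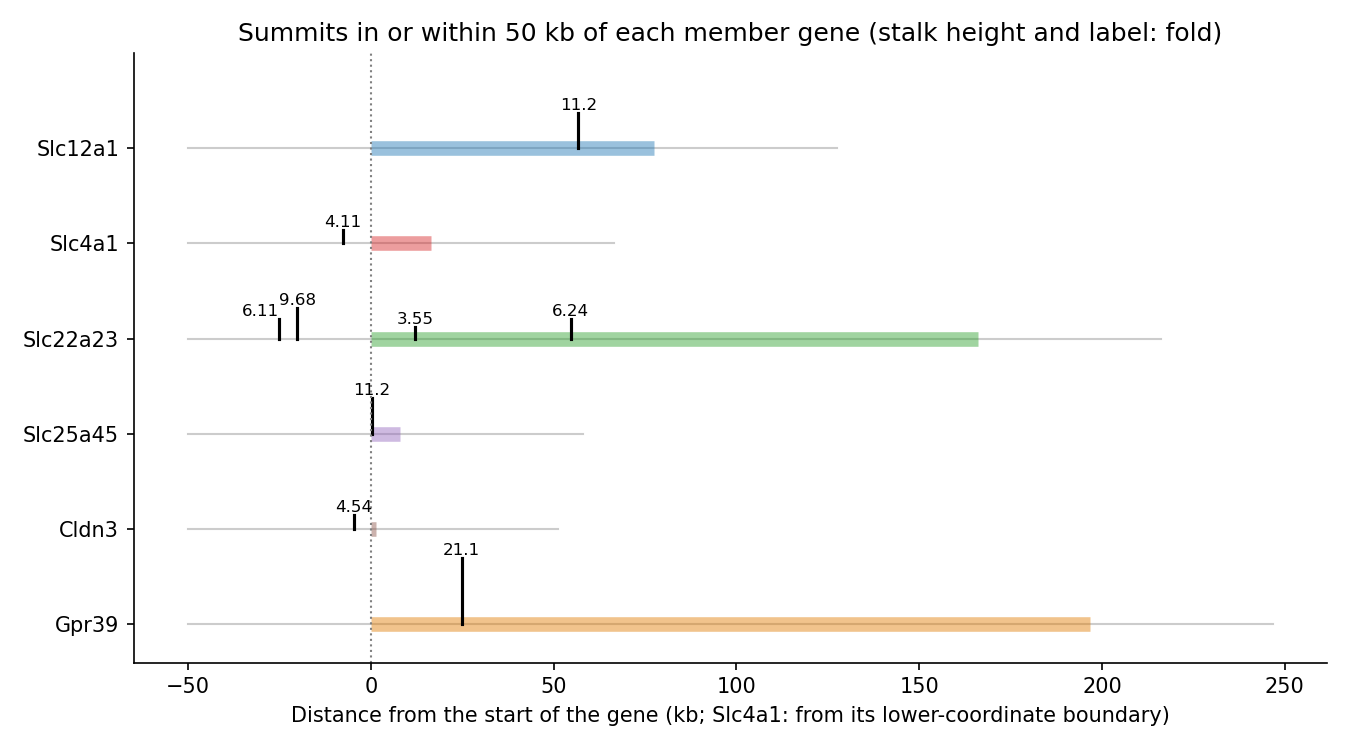
Each row is 1 member gene: the coloured bar is the gene, the grey line adds 50 kb on each side, and black stalks are summits, with height and label giving the fold; the x axis is the distance in kb from the start (for Slc4a1 from its lower-coordinate boundary). The 4 summits of Slc22a23 fall on both sides of its start, and the Slc25a45 summit sits 232 bp from the start.

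Cldn3 and Slc4a1 had weaker peaks that lay outside the gene. The peak near Cldn3 (chromosome 5, gene at 134986214 to 134987476, peak chr5:134981467-134981725) was 4705 bp upstream of the start, with 19 reads over 3.41, a fold of 4.54 (2.82 to 6.96) and a −log10 q of 4.85. Cldn3 was the nearest gene, and the noncoding Wbscr25 followed at 5924 bp. A second claudin gene, Cldn4, lay 34.6 kb from the same summit, so this 1 peak counts for both claudins. Within 50 kb were also Abhd11 (27.6 kb), Mettl27 (38.9 kb) and Stx1a (42.0 kb).

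The Slc4a1 peak (chr11:102341120-102341425) lay 7617 bp outside the lower-coordinate boundary of the gene (chromosome 11, 102348820 to 102365281). It had 22 reads over 4.60, a fold of 4.11 (2.64 to 6.13) and a −log10 q of 4.80. Slc4a1 was the nearest gene, and Ubtf, which encodes a factor of ribosomal RNA transcription, followed at 17.6 kb. The listed start nearest to the summit was that of Ubtf, at 20.3 kb, while Slc4a1 had no listed start. The coding genes Gm33851 and Atxn7l3 lay 43.3 and 44.2 kb from the summit. Whether the peak lay before or after the gene was not analysed here.

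The 9 peaks resembled the list in shape. Their widths ran from 183 to 410 bp with a median of 259 bp, against a list median of 268 bp. Backgrounds ran from 3.09 to 5.30 scaled reads, and 2 of the 9 were at the floor of 3.09, where 43.2% of all peaks lay. The range in fold was thus mostly a range in ChIP reads, from 16 to 89, while backgrounds differed little. Summits lay between 4.92% and 63.7% of the way along the peak, and the median of the list was 47.1%. The 4.92% belonged to the weakest Slc22a23 peak, whose summit was 9 bp from its edge.

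**Figure D3:**
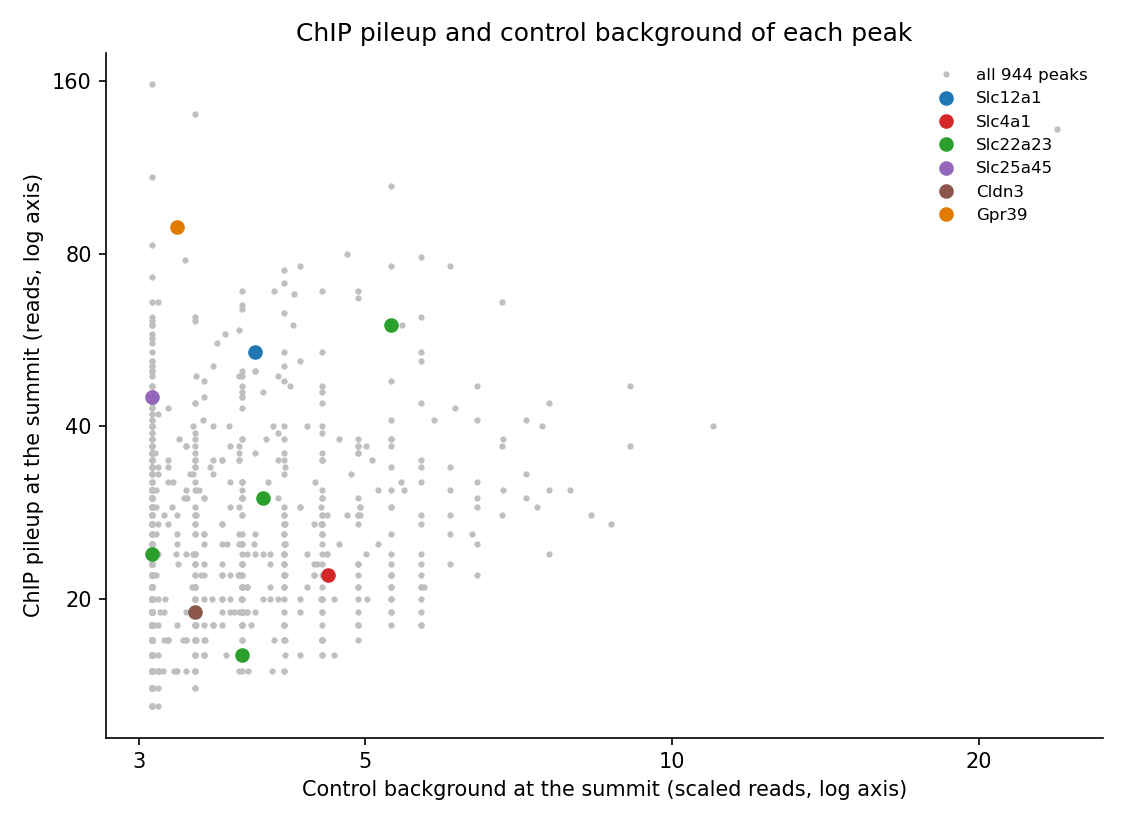
Each point is 1 peak, with the control background at the summit on the x axis (scaled reads) and the ChIP pileup on the y axis (reads), both on log axes; grey points are all 944 peaks and coloured points the members. Members span pileups from 16 to 89 while their backgrounds stay between 3.09 and 5.30.

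Measured to the gene body, other genes rarely lay nearer to these peaks, though the start of Gm46760 was nearer than that of Slc12a1. For Slc4a1, which had no listed start, the listed start nearest to the peak was that of Ubtf, at 20.3 kb. The member was the nearest gene, or shared an overlap, for 8 of 9 summits and the nearest coding gene for all 9. A summit lay inside the gene in 4 of the 6 members, and outside it in Cldn3 and Slc4a1. Across all coding genes, 6.13% had a summit in the gene or within 50 kb, and 1.63% had one inside the gene. Among the 2427 coding genes of at least 100 kb, such as Gpr39 and Slc22a23, 7.33% had a summit inside. Members were picked for having peaks, so nothing is read from their counts against these shares.

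At the edge of the 50 kb rule, the outermost summit taken was the one 25.2 kb outside Slc22a23. The closest one left out was 67.4 kb outside Slc25a45, with a fold of 3.87 (2.27 to 6.23), and Malat1 was the gene nearest to it, at 7735 bp. For the other 5 genes the next summit was from 446 kb (Slc4a1) to 2530 kb (Gpr39) away. Peaks on the 6 chromosomes numbered from 0.302 per Mb (chromosome 2) to 0.767 per Mb (chromosome 19), and the part that this density plays in the results was not tested.

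Lists of related genes were counted to place the members among their kin, each beside the share of 6.13% for all coding genes. The median of the largest fold over coding genes with a summit was 5.37. In all, 21 of 342 solute carrier genes (6.14%) had a summit in the gene or within 50 kb, 4 of them members, with a median largest fold of 5.24. Without the members the count was 17 of 338 (5.03%). The largest folds were at Slc12a8, Slc12a1, Slc25a45 and Slc22a23. The share of solute carriers was thus close to that of all coding genes.

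Within the member families the counts were small. In the cation-chloride cotransporter family Slc12, 2 of 9 genes had a summit, Slc12a1 and Slc12a8. Slc12a8 had 47 reads and a fold of 11.7 (8.68 to 15.5), with the summit 70.0 kb deep in the gene, a size like that of Slc12a1 at 11.2. The other 7 members of the family, which include the thiazide-sensitive Slc12a3, had none. In the bicarbonate family Slc4, 2 of 10 had a summit. Besides Slc4a1 it was Slc4a4, the sodium bicarbonate cotransporter of the proximal tubule, with 3 weak peaks inside the gene at 3.91 (2.29 to 6.29), 3.07 (1.83 to 4.87) and 3.88 (2.5 to 5.79). Of 25 Slc22 genes, Slc22a23 alone was counted, and of 47 Slc25 genes Slc25a45 and Slc25a22. The Slc25a22 peak, at 5.77 (3.98 to 8.12), lay 38.8 kb outside the gene and inside Tspan4.

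Claudins gave 3 of 25 genes, but only 2 peaks, since Cldn3 and Cldn4 shared one. The second was inside Cldn14, a claudin that limits calcium reabsorption in the thick ascending limb, with 18 reads and a fold of 4.64 (2.85 to 7.19). Of 36 other junction and polarity genes, 2 (5.56%) had a summit. The E-cadherin gene Cdh1 had one 14.3 kb outside the gene, with 76 reads and a fold of 14.5 (11.5 to 18.1), which lay inside the noncoding gene 1110028F18Rik. Prkci, which encodes a polarity kinase, had one inside the gene at 3.91 (2.29 to 6.29). Peaks were few in both groups, and the interval of the one near Cdh1 lay above those of the others named here.

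Zinc genes were counted in a transporter family and in a list of other zinc genes. Of 24 zinc transporter genes, 3 (12.5%) had a summit. Slc30a4 had 2 peaks, 5.09 and 16.8 kb outside the gene, at 7.74 (5.40 to 10.8) and 5.64 (3.84 to 8.02), both inside the noncoding gene 4930417H01Rik. Slc39a11 had a peak deep inside the gene at 7.57 (5.19 to 10.7), which also lay inside the noncoding gene Gm51926. Its second peak, 29.7 kb outside the gene at 4.14 (2.58 to 6.35), was nearer to the noncoding gene Gm39505, at 2570 bp. The Slc39a7 peak was the one in Rxrb at 5.24 (3.68 to 7.26). All of these lay below the peak in Gpr39. In the list of 12 other zinc genes, Gpr39 was the only one counted, and the metallothionein genes Mt1 and Mt2 had no summit. Among 10 receptors related to Gpr39, 3 were counted. Besides Gpr39 these were Gpr142 at 9.10 (6.51 to 12.4) and Ntsr1 at 5.43 (3.59 to 7.92), but both peaks lay inside other genes, Gprc5c and Gm30144.

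Genes of the nephron segments were counted in a similar way. The thick ascending limb gave 2 of 21, Slc12a1 and Cldn14. The intercalated cell gave 2 of 22, Slc4a1 and the potassium channel gene Kcnma1 at 5.62 (3.61 to 8.38). The Kcnma1 peak lay inside that gene, 341 kb from its nearer boundary, and also inside the noncoding gene Gm51422. The distal convoluted and connecting tubule gave 2 of 17. One was the magnesium channel gene Trpm6, with 3 peaks inside the gene at 10.0 (7.22 to 13.5), 4.45 (2.73 to 6.89) and 8.06 (5.59 to 11.3). The other was the kinase gene Wnk4, with 2 peaks outside it that were nearer to Vps25 and Becn1, the larger at 6.49 (4.58 to 8.96). Trpm6 thus had nearly as many peaks as Slc22a23. Its summits lay 28.9, 36.4 and 81.0 kb from the same boundary of the gene, narrowly more than the 50 kb that a run allows. The run at Slc22a23 itself rested on a peak with a −log10 q of 2.33.

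The principal cell gave 2 of 16 genes. Nr3c2, the mineralocorticoid receptor gene, had a peak inside at 5.31 (3.51 to 7.75), and Hsd11b2 had one 49.7 kb away, inside Agrp, at 10.5 (7.83 to 13.8). Proximal tubule transport gave 3 of 35. Slc4a4 was one. The endocytic receptor gene Lrp2, at 4.54 (2.86 to 6.90), had its peak 44.2 kb away, inside the noncoding gene Gm36393. Of 15 podocyte markers Synpo was counted, with 2 peaks, the larger at 6.84 (4.59 to 9.84), and of 20 fibroblast, endothelial and immune markers none was. No list other than the solute carriers had more than 3 counted genes, and the lists differ in gene length, so their shares were not ranked.

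**Figure D4:**
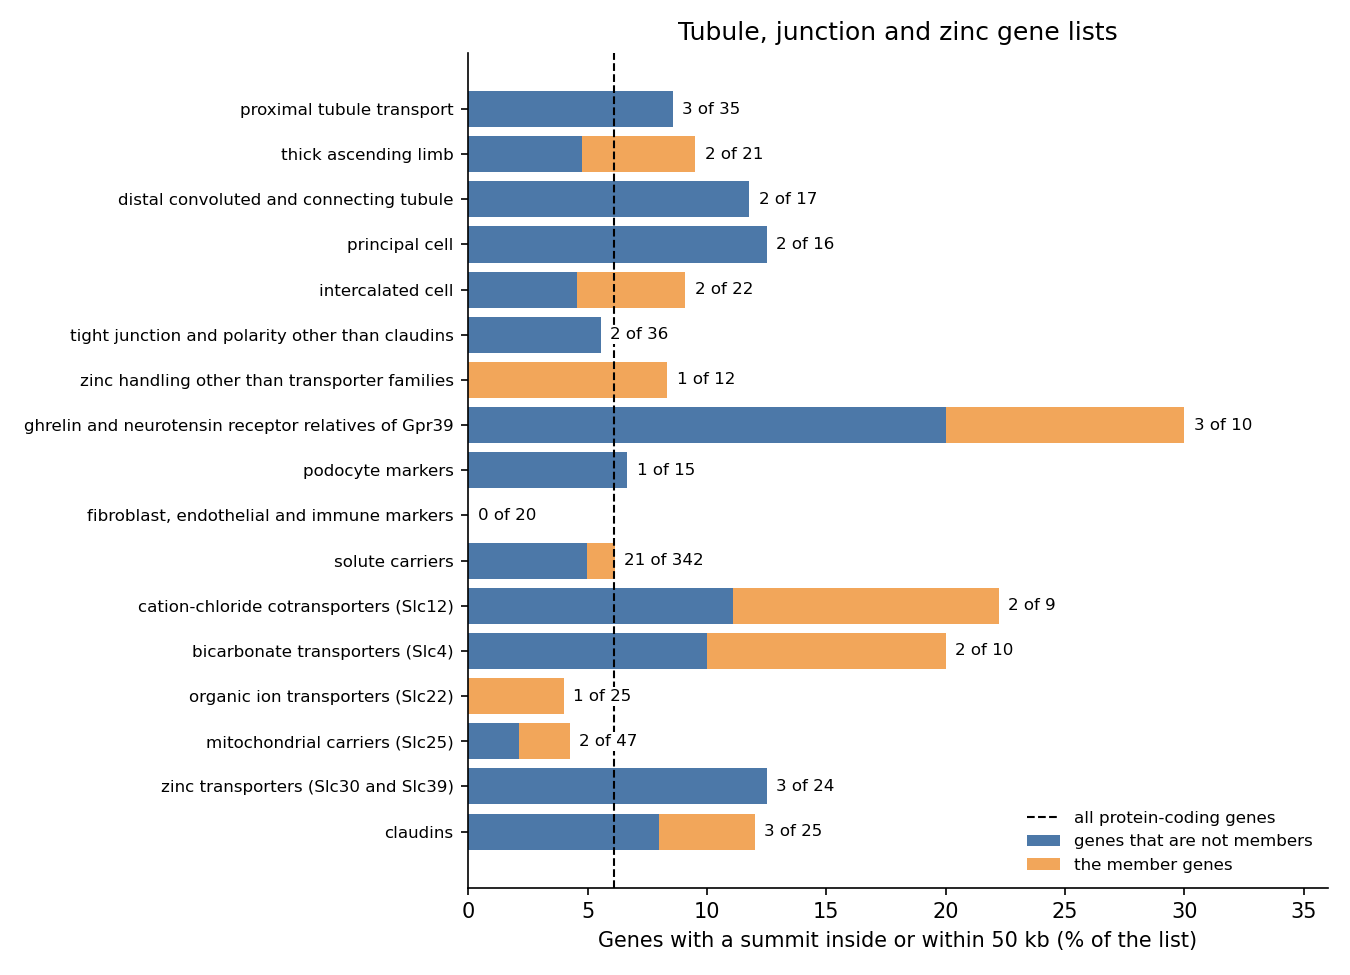
Bars give the percentage of each list's genes with a summit in the gene or within 50 kb, split into the member genes and the rest, with counts beside the bars and a dashed line at 6.13% for all protein-coding genes. Most named lists rest on 1 to 3 genes, and solute carriers, at 21 of 342, sit at the line.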

How the data were processed

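Peaks of 1 Foxp2 ChIP library, called against 1 input, were used. MACS2 and bcl2fastq are named, with build mm10, per the submitters' processing notes. No aligner, read filter or version is named in these sources. Each peak carries a fold ratio, a −log10 p and a −log10 q, all deposited by the authors. The deposited score equalled 10 times −log10 q, cut to a whole number and capped at 1000, throughout (100% of peaks), so it was not used. Peak numbers ran to 983. Of these numbers 39, among them the 8 lowest, belonged to no peak of the 944 analysed, and −log10 q never rose with the number, so ranks hold within the 944 peaks.

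Library depths are unknown. With fold as (pileup + 1) / (background + 1) and p as a Poisson tail, whole pileups were recovered with an error in −log10 p of at most 2.05e-05 (SciPy 1.17.1, Python 3.11.15). The recovery and the gene counts were tested on simulated data. Genes (49554, of which 21631 coding) and starts came from RefSeq, GRCm38.p6, the build called mm10. A summit is the deposited start plus offset, printed 1-based, and genes were found by distance to the gene body. Motifs were exact letters on both strands, overlaps allowed.

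Members and the 17 gene lists were chosen with earlier results of these data known. All members were named, with genes nearer to their peaks, the coding genes around them, and up to 4 genes per list by fold, except 1 proximal tubule gene that is counted but not reported here. Exons and the sequence under most peaks were not analysed here.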

Additional observations from a re-analysis of the deposited data

How the results depend on the processing

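All 6 members kept a summit with a distance of 10 kb (7 peaks) or 100 kb (10 peaks), and with whole peak intervals in place of summits (9 peaks). The peaks lost at 10 kb were those upstream of Slc22a23, among them its strongest, at 9.68. Inside the gene only, 4 members and 5 peaks were left. With −log10 q of at least 5, or with fold at or above the list median, 4 members and 6 peaks were left, without Slc4a1 and Cldn3. Each member left in a setting was the nearest gene to at least 1 of its peaks. The share of coding genes with a summit moved from 6.13% to 2.71% (10 kb), 10.1% (100 kb), 1.63% (in the gene only), 3.21% (fold at or above the median) and 4.23% (−log10 q of at least 5), since fewer or more positions or peaks counted. It was 5.34% over all annotated genes. The cluster at Slc22a23 was present with the looser rules of 2 summits or of 100 kb, each with 4 summits. With runs over 10 kb, 0 clusters at members were left. The run over 50 kb rested on the peak with −log10 q of 2.33, which the filters on −log10 q and on fold both removed. Among the 17 lists, counts moved by over 1.5 times in 6 with 10 kb, in 8 with 100 kb, in 6 with −log10 q of at least 5 and in 7 with fold at or above the median. The 3 member peaks with folds below the list median rest on pileups of 16 to 22 reads, and 1 library without a replicate gives no biological error.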
